A study of Homo sapiens with 16 samples.

Results

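Nuclear and cytosolic RNA of HBE cells were compared, using 4 of the 16 RNA sequencing libraries of a study on FLII (flightless I), a member of the gelsolin family that acts on actin filaments. HBE is labelled as an epithelial lung cell line, and its cells carried either lentiviral short hairpin RNA for stable knockdown of FLII or the control called NC, with no further treatment named for these groups. Each cell group gave 1 cytosol and 1 nuclear library of polyA RNA, so 2 libraries stood on each side, and the other 12 libraries were mRNA, ribosome-bound, cytosol and nuclear RNA of the same cells or of H1299, a lung carcinoma line. How nuclei and cytosol were separated is not given in the sources used here, and neither is the number of cultures or clones behind a library. The libraries held 5914489 (cytosol NC), 6585225 (cytosol knockdown), 7334043 (nuclear NC) and 8201848 (nuclear knockdown) reads on genes. Of 23709 genes, 11598 had 50 or more reads summed over these 4 libraries and were compared, 10712 with a coding and 886 with a noncoding RefSeq accession. The ratio throughout is log2 of nuclear over cytosolic CPM, the read count of a gene scaled to the library total, so that a value above 0 lies on the nuclear side.

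In a cell, transcripts that encode secreted and membrane proteins are translated on ribosomes bound to the endoplasmic reticulum (ER), to which they are led by a hydrophobic signal peptide or membrane segment that emerges early in translation. The ER membrane is continuous with the outer membrane of the nucleus. Transcripts for cytosolic, mitochondrial and nuclear proteins are translated mostly on free ribosomes, and some noncoding RNAs, of which MALAT1 and NEAT1 are the best known, stay in the nucleus, in speckles and paraspeckles. CPM are shares of a library, so a larger share in the nucleus and a smaller share in the cytosol cannot be told apart here, nor can the amounts of RNA per cell.

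The labels were checked first. MALAT1 had 19.1 and 21.7 CPM in cytosolic RNA (NC and knockdown, in this order throughout) and 407 and 524 CPM in nuclear RNA, a ratio of 4.51 (4.41 in the NC pair of libraries and 4.59 in the knockdown pair). NEAT1 had 18.8 and 16.9 CPM in cytosolic and 133 and 144 CPM in nuclear RNA, a ratio of 2.96. Nuclear and cytosolic libraries did not overlap for either RNA, and both were still measured in the cytosol. In the HBE mRNA libraries MALAT1 had 1784.6 and 1496.7 CPM and NEAT1 547 and 1037.2 CPM, above both fractions. A mixture of the fractions would lie between them. The fractions therefore differ from the mRNA libraries in some further way, which was not tested. FLII had 273 CPM (NC) and 35.8 CPM (knockdown) in the cytosol and 378 and 49.0 CPM in the nucleus, so the libraries labelled knockdown were low in both fractions. All 16 basal epithelial markers had reads, with sums of 9587.3 to 12486.6 CPM per library. Of 11 markers typical of H1299, 5 were at 0 (CTAG1B, GAGE12I, PAGE1, PAGE2 and SPANXB1) and the sums were 7.95 and 14.1 CPM in cytosolic and 5.18 and 3.90 CPM in nuclear RNA, against 4255 to 7803.3 CPM in the H1299 cytosol and nuclear libraries. Of 8 fibroblast markers 6 had reads (9.72 to 13.7 CPM in sum), with DCN and THY1 at 0, and of 8 immune markers 6 had reads (72.4 to 90.5 CPM). The 6 endothelial markers summed to 8.45 and 8.05 CPM in cytosolic and 19.8 and 26.7 CPM in nuclear RNA.

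More of the genes lay on the nuclear side. With library size set to total reads, 4730 genes (40.8%) were higher and 630 (5.43%) lower in nuclear RNA, at an adjusted p under 0.05 (edgeR quasi-likelihood test, cell group and fraction as terms) and a ratio of at least 1 in size. The median over all genes was 0.70, so a typical gene was above 0. With TMM scaling, which centres most genes, the median moved by -0.60 to 0.10 and the calls became 2646 higher (22.8%) and 2172 lower (18.7%), so that 54.9% of calls were on the nuclear side against 88.2% before. Every list below is therefore read against the median of all genes, 0.70, and a ratio between 0 and about 0.60 has the other sign under TMM. The NC and the knockdown pair of libraries gave close ratios: Pearson's r across genes was 0.93, and over the 7613 genes at 10 CPM or more it was 0.98, with a median absolute difference of 0.13 and 95% of differences under 0.52. Genes are not independent replicates, and these pairs differ in FLII. The p-values rest on a spread pooled over genes, which may be technical, and not on how far the pairs of a single gene disagree. All called genes had an adjusted p of 3.24e-02 or less (edgeR). The pair values are given as the error of each ratio.

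**Figure D1:**
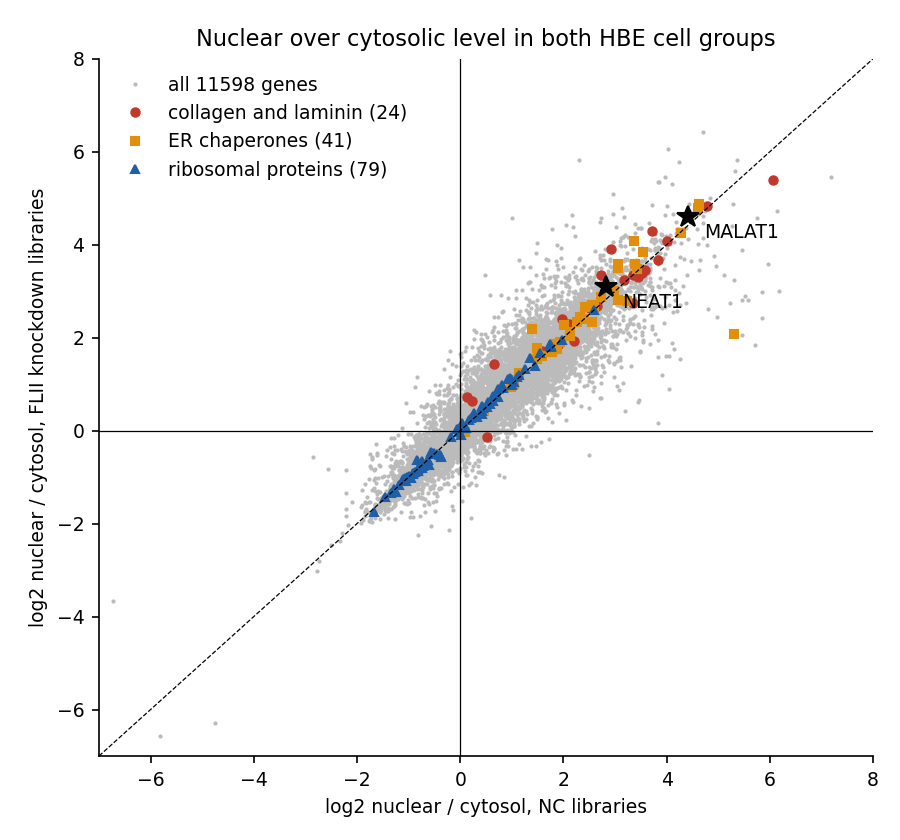
Log2 nuclear over cytosolic CPM of 11598 genes in the NC libraries (x axis) and in the FLII knockdown libraries (y axis), 1 point a gene, with 3 gene lists and 2 noncoding RNAs marked; the dashed line marks equal values. Most points lie near the dashed line and right of 0, collagen, laminin and ER chaperone genes lie at the upper end, and ribosomal protein genes spread on both sides of 0.

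Pairs of related proteins, 1 made on the ER and 1 in the cytosol, show the contrast within a family. The starts of 4 such pairs of coding sequences are printed, because the start encodes the signal peptide. Each shows the first 75 coding bases from the start codon, 5′ to 3′ (GENCODE 29), and capitals mark codons with T in the middle position, which encode hydrophobic residues. The first of each pair is the ER member.
HSP90B1: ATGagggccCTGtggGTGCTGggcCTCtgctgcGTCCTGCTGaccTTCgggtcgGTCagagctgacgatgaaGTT
HSP90AB1: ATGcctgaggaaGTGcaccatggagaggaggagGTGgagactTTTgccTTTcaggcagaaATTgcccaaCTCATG
HSPA5: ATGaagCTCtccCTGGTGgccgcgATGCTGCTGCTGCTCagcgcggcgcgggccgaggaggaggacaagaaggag
HSPA8: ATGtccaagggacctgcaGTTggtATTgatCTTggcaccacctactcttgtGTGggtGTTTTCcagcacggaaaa
PPIB: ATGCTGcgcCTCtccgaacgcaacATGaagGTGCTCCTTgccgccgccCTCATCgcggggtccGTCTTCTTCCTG
PPIA: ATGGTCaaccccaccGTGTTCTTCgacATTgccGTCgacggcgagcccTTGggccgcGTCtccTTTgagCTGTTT
DNAJB11: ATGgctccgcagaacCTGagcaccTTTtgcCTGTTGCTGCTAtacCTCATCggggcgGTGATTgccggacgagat
DNAJB1: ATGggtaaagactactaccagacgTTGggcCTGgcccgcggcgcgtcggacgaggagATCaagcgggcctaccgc
The ER members carry 11 (HSP90B1), 9 (HSPA5), 13 (PPIB) and 11 (DNAJB11) such codons among the first 25, in runs, and the cytosolic members 8, 7, 12 and 4, mostly scattered.

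HSP90B1, the HSP90 of the ER lumen, had 16.2 and 15.3 CPM in cytosolic and 404 and 455 CPM in nuclear RNA, a ratio of 4.77 (4.63 and 4.88). HSP90AB1, the cytosolic HSP90, had 717 and 668 against 2857.2 and 3061.3 CPM, a ratio of 2.10. Both were higher in nuclear RNA, and the ER member by far the more. HSPA5 (BiP), the HSP70 of the ER, had 29.3 and 26.9 against 714 and 740 CPM, a ratio of 4.70 (4.61 and 4.78). HSPA8, the constitutive cytosolic HSP70, had 384 and 324 against 1588.2 and 1495.2 CPM, a ratio of 2.13. The ER proline isomerase PPIB had 433 and 432 against 1486.2 and 1398.2 CPM, a ratio of 1.74, at a GC content of 58.2% in its transcript. Its cytosolic relative PPIA, at 46.0% GC, had 1643.4 and 1764.6 against 2385.0 and 2650.3 CPM, a ratio of 0.56 that missed the size for a call. The ER co-chaperone DNAJB11 had 11.7 and 10.0 against 122 and 121 CPM, a ratio of 3.49 (3.38 and 3.59). DNAJB1, its cytosolic and nuclear counterpart, had 144 and 155 against 133 and 139 CPM, a ratio of -0.14. In all 4 families the ER member had the larger ratio in the NC pair and in the knockdown pair.

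**Figure D2:**
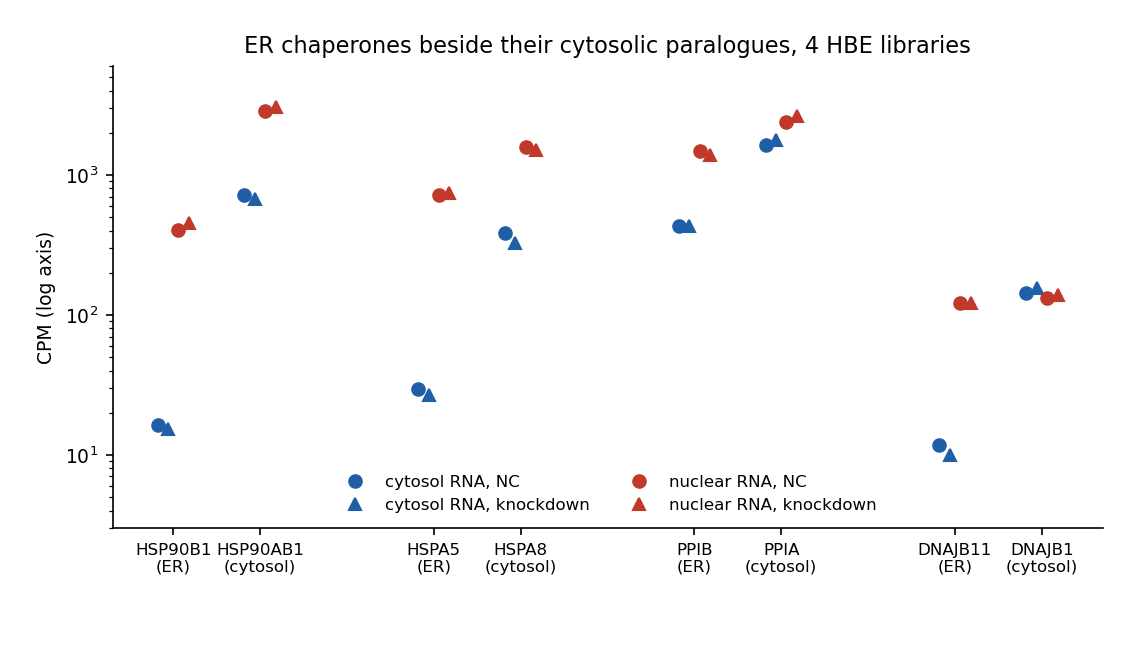
CPM (log axis) of 4 ER proteins and their cytosolic relatives in each of the 4 HBE libraries; blue stands for cytosolic and red for nuclear RNA, circles for NC and triangles for FLII knockdown. The red and blue points of HSP90B1, HSPA5 and DNAJB11 lie far apart, and those of DNAJB1 overlap.

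Mitochondrial members of these families had ratios of -0.38 (TRAP1), 2.07 (HSPA9), 0.10 (PPIF) and 0.15 (DNAJA3), and only HSPA9 was called. Over the whole paralogue lists, 10 of 13 ER or secreted members were higher (median 2.40), 10 of 16 cytosolic members (1.19) and 2 of 10 mitochondrial members (-0.07, 1 lower). Some other families did not show this order for every member. The ER peroxiredoxin PRDX4 had a ratio of 0.77, below the 1.23 of cytosolic PRDX1 and the 0.96 of mitochondrial PRDX3. It was above cytosolic PRDX2 (-0.58) and PRDX6 (-0.51) and mitochondrial PRDX5 (-0.48). Secreted SOD3, a superoxide dismutase, was at 0.14, below cytosolic SOD1 (0.95) and mitochondrial SOD2 (1.51), and the proton pump subunits ATP6AP1 (1.70) and ATP6V0A1 (1.75), which enter the ER, were below cytosolic ATP6V1A (2.11). The inducible cytosolic HSP90AA1, with 124 and 130 against 1595.8 and 1565.1 CPM, reached 3.63. GC content and length differ within these families as well, with medians of 51.3%, 45.4% and 54.4% GC and 2578, 2022.5 and 1662 bases for the ER, cytosolic and mitochondrial lists, and their part in the contrast was not tested.

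The 41 ER chaperones and folding enzymes, which fold and modify proteins entering the secretory pathway, were higher in nuclear RNA for 38 and lower for none (median 2.29, quartiles 1.73 and 3.01; 1.70 with TMM). The disulfide isomerase PDIA3 rose from 13.4 and 15.0 to 259 and 287 CPM (4.26), the lectin chaperone CALR from 550 and 548 to 1953.5 and 2008.6 CPM (1.85), HYOU1, a large relative of the HSP70s, from 65.9 and 67.3 to 345 and 356 CPM (2.40) and the collagen chaperone SERPINH1 from 316 and 300 to 894 and 921 CPM (1.56). P4HB, a disulfide isomerase and prolyl hydroxylase subunit, missed the size at 0.96, with 681 and 709 against 1347.6 and 1355.2 CPM. These 41 genes together took 0.381% and 0.390% of cytosolic and 1.32% and 1.36% of nuclear reads. Lysosomal and endosomal proteins, which reach their place through the ER, were higher for 30 of 38 and lower for none (median 2.05). LAMP1, the main lysosomal membrane glycoprotein, had 57.0 and 54.5 against 412 and 404 CPM (2.87). PSAP, the precursor of the saposins, had 165 and 176 against 789 and 799 CPM (2.22), and the mannose 6-phosphate receptor IGF2R 5.75 and 3.19 against 66.5 and 66.6 CPM (3.91). Of 78 glycosyltransferases of the ER and Golgi, 39 were higher and 3 lower (median 1.05): STT3A, a catalytic subunit that attaches N-glycans in the ER, had a ratio of 3.96, while the galactosyltransferase B4GALT2 lay on the cytosolic side, with 436 and 456 against 212 and 206 CPM (-1.09).

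Genes of the extracellular matrix had the highest list median. Of 24 collagen and laminin chains with enough reads (55 in the tables), 21 were higher and none lower, with a median of 3.08 (quartiles 2.01 and 3.47; 2.49 with TMM). COL12A1, a fibril-associated collagen, had 0.676 and 1.37 CPM in cytosolic and 50.9 and 60.2 CPM in nuclear RNA (5.72; 6.06 and 5.39). LAMA3 and LAMB3, laminin chains of the epithelial basement membrane, were higher, LAMA3 with 4.57 and 6.53 against 128 and 188 CPM (4.83) and LAMB3 with 142 and 157 against 816 and 981 CPM (2.58). LAMA5, of other epithelial laminins, had the smaller ratio of 1.87 (219 and 251 against 815 and 905 CPM). COL7A1, the collagen of anchoring fibrils, had 41.9 and 41.8 against 457 and 411 CPM (3.37). Of 27 other matrix proteins 21 were higher and none lower (median 2.25). The adhesive glycoprotein TNC had 0.845 and 2.73 against 65.0 and 73.9 CPM (5.23), the fibrillin FBN2 0.676 and 1.06 against 29.6 and 33.4 CPM (5.14) and the heparan sulfate proteoglycan AGRN 183 and 193 against 751 and 778 CPM (2.02). FN1 (fibronectin) had 1.86 and 1.37 against 30.3 and 63.5 CPM, and its 2 pairs differed more than most (3.96 and 5.46). LTBP3, which binds latent TGF-beta, was near the median of all genes at 0.52 (197 and 256 against 278 and 371 CPM), while its relative LTBP1 was at 5.33. Secreted growth factors and cytokines were mixed: 33 of 61 were higher (54.1%, against 40.8% of all genes) and 5 lower, with a median of 1.10. At the top was SEMA3A, an axon guidance factor (6.06, with 1 and 0 cytosolic reads, so its size is not well measured). At the bottom was WNT7B, an epithelial Wnt ligand (-1.32, with 167 and 185 against 72.8 and 68.0 CPM).

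Membrane proteins lay on the nuclear side less uniformly, and some lists were near the share of all genes called higher (40.8%, or 22.8% with TMM). Cadherins and protocadherins, the adhesion receptors of cell junctions, were higher for 20 of 22 and lower for none (median 2.13): CDH1 (E-cadherin) had 2.71 and 3.19 against 80.4 and 105 CPM (4.97) and the giant cadherin FAT1 18.6 and 18.5 against 503 and 489 CPM (4.74). Among 13 integrin chains 8 were higher (median 1.20). ITGB1, the common beta chain, had 40.1 and 40.7 against 486 and 484 CPM (3.58), and ITGA2, a collagen receptor chain, was at 4.35. ITGA3 and ITGB4, chains of laminin receptors of basal cells, were at 0.95 and 0.84 and not called. Claudins, tetraspanins and related small membrane proteins were higher for 18 of 35 (51.4%, or 34.3% with TMM), with 1 lower and a median of 1.06. The lysosomal tetraspanin CD63 had 377 and 384 against 971 and 976 CPM (1.35). CD81 was at 0.96, CD151 at 0.48 and TSPAN17 on the cytosolic side at -1.10. Receptor tyrosine kinases and semaphorin receptors were higher for 16 of 31 (median 1.02), with PLXNB2 at 1.08 and EPHB4 at -0.28. Of 31 secreted and membrane proteases 21 were higher and 1 lower (median 1.47): the membrane collagenase MMP14 had 68.1 and 73.6 against 501 and 565 CPM (2.91), the lysosomal protease CTSD 1138.9 and 1281.4 against 2357.5 and 2524.6 CPM (1.01) and ADAM15 was at -0.01. TMEM genes, a mixed group of membrane proteins named only by that feature, had a median of 0.58, below that of all genes, with 55 of 165 higher and 8 lower, from TMEM161B at 3.82 to TMEM54 at -1.26.

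Solute carriers split by the membrane they serve. Carriers of the plasma membrane and organelles were higher for 86 of 165 (52.1%, against 40.8% of all genes) and lower for 1. Their median was 1.04 (0.44 with TMM). The SLC25 carriers, which sit in the inner mitochondrial membrane and are made on free ribosomes, were higher for 10 of 37 (27.0%) and lower for 6. Their median was 0.10 (-0.50 with TMM). Lengths differed, at medians of 3376 and 2370 bases, and GC contents were close, at 50.8% and 50.1%. The contrast was present among transcripts under 50% GC (1.74 over 80 genes against 1.01 over 18) and among those at or above it (0.49 over 85 against -0.78 over 19). SLC38A2, a neutral amino acid transporter, had 8.45 and 9.42 against 223 and 208 CPM (4.58), and SLC3A2, the heavy chain of amino acid exchangers, 715 and 774 against 2920.5 and 3159.3 CPM (2.03). The carrier called lower was SLC10A3 (-1.49). The partner of SLC3A2, SLC7A5, the most abundant carrier, did not follow, with 5728.1 and 6564.5 against 5591.5 and 6243.0 CPM (-0.05). On the mitochondrial side SLC25A39, a carrier known for glutathione import, had 1291.2 and 1221.5 against 341 and 309 CPM (-1.95), and the ADP/ATP carriers SLC25A6 and SLC25A5 were at -0.74 and 0.70.

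**Figure D3:**
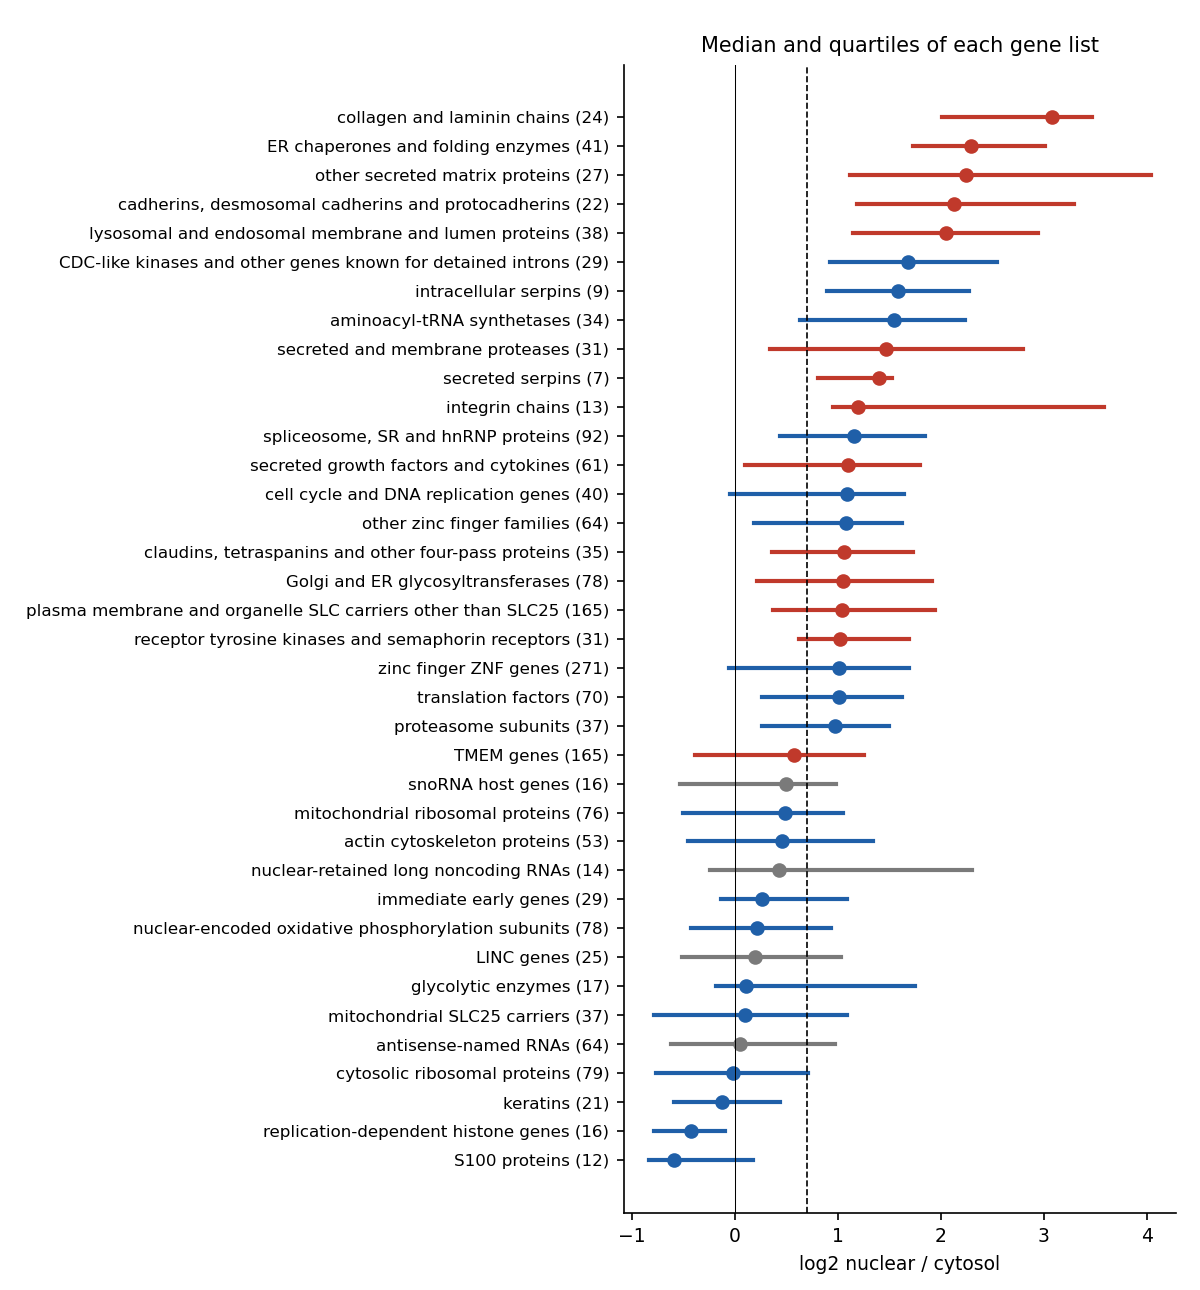
Median (point) and quartiles (line) of the log2 nuclear over cytosolic ratio for each gene list, with the number of genes compared; red marks lists of secreted, membrane or ER-routed proteins, grey noncoding RNAs and blue other lists, and the dashed line marks the median of all genes, 0.70. Matrix, ER, cadherin and lysosomal lists lead, and S100, histone, keratin and ribosomal protein lists lie at the bottom.

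Across all coding genes the class was examined from the protein sequence. Coding sequences of 10670 genes (99.6% of the coding genes compared) were translated, and a hydrophobic stretch was a window of 19 residues with a mean Kyte-Doolittle hydropathy of at least 1.6. The 1302 genes whose first stretch began at residue 1 to 30, where signal peptides and signal anchors lie, had a median ratio of 1.08 (682 higher, 43 lower). The 2169 with a later first stretch had 0.86, and the 7199 with none had 0.63 (2775 higher, 441 lower). Proteins with 7 or more stretches, most of them multispanning, had a median of 1.26 over 312 genes. By the number of middle-T codons among the first 25, the median went from 0.54 (4 or fewer, 2202 genes) to 1.09 (13 or more, 321 genes). The rule is coarse: short signal peptides fall under it, and HSPA5 (first window at residue 414), COL12A1 and FN1 (no window) are counted outside the N-terminal class. The quartiles of the classes overlap widely (0.15 to 2.01 with an N-terminal stretch, -0.23 to 1.43 with none).

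GC content and length also moved with the ratio. The ratio fell with GC content across coding genes (Spearman's rho -0.64) and rose with transcript length (0.38), number of exons (0.29) and the span of the gene in the genome (0.41); these are descriptions across genes that share 4 libraries. Coding transcripts under 40% GC had a median of 1.53 (1020 of 1364 higher, 1 lower) and those at 60% or more -0.43 (108 of 1894 higher, 343 lower). Within every GC class the genes with an N-terminal stretch had the higher median: 2.10 against 1.43 for no stretch under 40% GC, 1.92 against 1.33 at 40 to 45%, 1.75 against 1.07 at 45 to 50%, 1.21 against 0.44 at 50 to 55%, 0.46 against -0.19 at 55 to 60% and 0.05 against -0.58 at 60% or more. The same held in every length class, from 0.10 against -0.20 under 1 kb to 1.78 against 1.47 at 8 kb or more. It did not hold throughout for a later first stretch. Those genes had -0.43 against -0.20 for no stretch under 1 kb, and 0.04 against 0.06 at 1 to 2 kb. They were higher at 2 to 4 kb (0.62 against 0.55), 4 to 8 kb (1.24 against 1.06) and 8 kb or more (1.70 against 1.47). The median GC content and length were 52.1% and 2811 bases with an N-terminal stretch, 50.7% and 3618 bases with a later first stretch and 49.8% and 2960 bases with none.

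**Figure D4:**
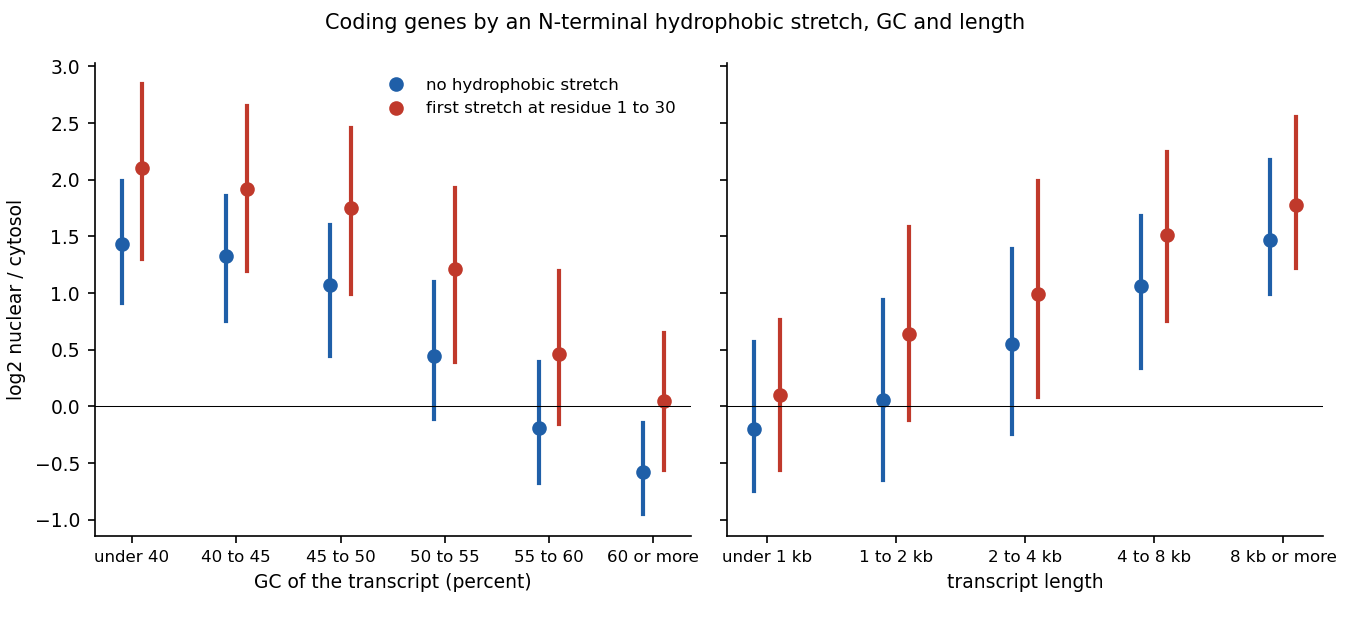
Median (point) and quartiles (line) of the log2 nuclear over cytosolic ratio of coding genes by GC content (left) and by length (right), for proteins with no hydrophobic stretch (blue) and with a first stretch at residue 1 to 30 (red). Medians fall with GC from 2.10 to 0.05 (red) and from 1.43 to -0.58 (blue), rise with length, and the red point lies above the blue one in every class.

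Long transcripts lay on the nuclear side. Of 617 coding transcripts of 8 kb or more, 464 were higher and none lower (median 1.59), against 80 higher and 85 lower of 565 under 1 kb (-0.17). The steps between were 0.14 (1 to 2 kb), 0.62 (2 to 4 kb) and 1.13 (4 to 8 kb), and GC content fell with them, from a median of 54.1% under 1 kb to 45.3% at 8 kb or more. Noncoding RNAs followed the same order, from -0.46 (under 1 kb, 85 genes) to 1.61 (8 kb or more, 25 genes). Long transcripts for proteins that never enter the ER were among the highest: SPTBN1, the spectrin beta chain under the plasma membrane, had 3.04 and 2.89 against 125 and 141 CPM (5.49), EPRS, a tRNA synthetase, 2.87 and 5.62 against 114 and 120 CPM (4.76) and the proliferation marker MKI67 13.2 and 12.8 against 189 and 198 CPM (3.90). Also among the 15 highest at 10 CPM or more were the membrane precursor protein APP (4.64) and HSP90B2P (4.92), a pseudogene near identical to HSP90B1 whose reads may be of that gene.

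Of 271 zinc finger genes of the ZNF series compared (531 in the tables), 136 were higher (50.2%, against 40.8% of all genes) and 16 lower. These genes, mostly transcription factors that repress repeats and genes, had a median of 1.01, above that of all genes. The members at low level carried this median. The 127 under 5 CPM had a median of 1.42 (88 higher, 1 lower) and the 45 at 5 to 10 CPM 1.43, whereas the 78 at 10 to 50 CPM had -0.01 and the 21 at 50 CPM or more -0.69 (1 higher, 6 lower). A fall with level was not particular to ZNF genes. All coding genes at the same levels had medians of 1.17 (56.8% higher), 1.17 (57.0%), 0.83 (44.2%) and -0.02 (21.8%). With 200 or more summed reads required, the difference of the ZNF median from that of all genes turned from 0.31 to -0.58. Without the nuclear knockdown library it was 0.06. GC content of ZNF genes moved with level: its median was 43.3% in the lowest and 62.9% in the highest of the ZNF groups. The 160 members under 50% GC had a median of 1.42 (117 higher, none lower) and the 109 at or above it -0.21 (17 higher, 16 lower), close to the 1.36 and -0.02 of all coding genes split the same way. Within length classes ZNF genes lay on either side of other genes without a stretch, at 0.71 against 0.54 at 2 to 4 kb and 1.21 against 1.05 at 4 to 8 kb, but -0.34 against 0.07 at 1 to 2 kb (23 ZNF genes) and 1.16 against 1.50 at 8 kb or more (22 ZNF genes). The most abundant, ZNF219, had 351 and 397 against 169 and 172 CPM (-1.14), ZNF511 had 224 and 232 against 100 and 97.3 CPM (-1.21), ZNF787 was at -0.60 and ZNF598, a ubiquitin ligase acting on stalled ribosomes, at -0.67. ZNF358, at 69.1% GC, had 164 and 207 against 49.4 and 56.0 CPM (-1.82). The member with the largest ratio, ZNF227 (3.84), had 0 and 0.456 CPM in cytosolic RNA. Other zinc finger families (ZFP, ZKSCAN, ZSCAN, ZBTB and KLF) had 33 of 64 higher and none lower (1.08).

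Ribosomal protein genes, short and highly translated on free ribosomes, lay below most genes, at a median of -0.02 over 79 (15 higher, 11 lower), which is -0.72 against the median of all genes. With TMM the median was -0.61, with 6 higher and 36 lower. Together they took 17.1% and 16.2% of cytosolic and 12.2% and 11.6% of nuclear reads. RPS2 had 15209.9 and 14855.7 CPM in cytosolic and 6396.2 and 5941.1 CPM in nuclear RNA (-1.29), RPLP0, a protein of the ribosomal stalk, 9059.6 and 8812.0 against 3309.2 and 3262.2 CPM (-1.44) and RPL8 8484.9 and 7701.2 against 4097.5 and 3640.4 CPM (-1.07). RPS24 went the other way, with 128 and 112 against 772 and 679 CPM (2.60). Many ribosomal protein genes have processed pseudogenes, and how reads were shared with these is not given in the sources used here. The list split by GC content. The 41 members under 50% had a median of 0.57 (12 higher, 1 lower), and the 38 at or above it had -0.73 (3 higher, 10 lower). All coding genes split the same way had 1.36 and -0.02, so the list was lower on both sides. By length it was not lower. Its median length was 741 bases, and the 565 coding genes under 1 kb had a median of -0.17 (80 higher, 85 lower). Nor was it lower than coding genes of high level. The 3215 coding genes at a mean of 50 CPM or more had a median of -0.02 (702 higher, 366 lower), the same as the list. The list itself was not split by level, and length, GC content and level were not split jointly for it.

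Mitochondrial ribosomal proteins, also made on free ribosomes, had a median of 0.49 (20 higher, 6 lower of 76), and subunits of oxidative phosphorylation 0.22 (18 higher, 3 lower of 78). Both split by GC content as well, at 0.95 and -0.51, and at 0.69 and -0.31. MRPL12 had 1303.9 and 1256.4 against 523 and 481 CPM (-1.35) and MRPL1 2.03 and 1.37 against 10.9 and 11.2 CPM (2.71). SDHA, the flavoprotein of complex II, had 105 and 105 against 786 and 811 CPM (2.93), whereas ATP5D, of the ATP synthase, had 1257.4 and 1191.2 against 562 and 524 CPM (-1.17) and NDUFA11, of complex I, was at -1.48. None of 21 keratins was called (median -0.12; 8 lower with TMM), and KRT81 was at -0.61, KRT17 at -0.24 and KRT5 at 0.72. Of 12 S100 calcium-binding proteins 2 were lower, S100A16 (-1.21) and S100A11 (-1.14), and none higher (median -0.59).

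The largest ratios to the cytosolic side came mostly from short transcripts. FTL, the ferritin light chain, had 2515 and 2270.1 CPM in cytosolic and 380 and 324 CPM in nuclear RNA (-2.77; -2.73 and -2.81). GPX4, the selenoenzyme that reduces lipid peroxides, had 1384.4 and 1307.6 against 374 and 345 CPM (-1.91), and SEPW1, another selenoprotein, 286 and 303 against 63.5 and 73.5 CPM (-2.10). PPDPF had 1228.3 and 1360.6 against 215 and 246 CPM (-2.49), C9orf16 329 and 407 against 65.6 and 78.8 CPM (-2.35) and BRI3 498 and 547 against 139 and 154 CPM (-1.84). ELK1, a transcription factor of the serum response (148 and 159 against 30.1 and 34.6 CPM, -2.24), RPS6KB2, a ribosomal S6 kinase (-1.83), FAM89B (-1.86) and the polarity protein PARD6A (-1.80) completed the coding genes, with SLC25A39 and ZNF358 above. For GAPDH, a common cytosolic reference, the values were 15562.8 and 15374 against 10574.7 and 10828.9 CPM (-0.53), and 2 elongation factors differed, EEF1A1 at 1.21 and EEF2 at -0.60.

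Noncoding RNAs as a class did not lie toward the nucleus. Of 886 with enough reads, 268 were higher and 60 lower (median 0.42, against 0.72 for coding genes and 0.70 for all), at similar GC content (50.9% against 50.2%) and shorter length (2431 against 3061 bases). Within length classes the whole mixed class was close to coding genes from 1 kb on (0.10 and 0.14 at 1 to 2 kb, 0.51 and 0.62 at 2 to 4 kb, 0.95 and 1.13 at 4 to 8 kb, 1.61 and 1.59 at 8 kb or more). As it holds some coding genes, this does not describe noncoding RNAs alone. Antisense-named RNAs had a median of 0.05 (15 higher, 7 lower of 64), LINC genes 0.20 (7 higher, 1 lower of 25), snoRNA hosts 0.50 (4 higher, 2 lower of 16) and a list of long noncoding RNAs often described as nuclear 0.43 (6 higher, 2 lower of 14). In this last list KCNQ1OT1 (2.48) and TUG1 (2.43), named here after their values were seen, were higher beside MALAT1 and NEAT1, DANCR was on the cytosolic side (147 and 175 against 68.7 and 78.8 CPM, -1.13) and GAS5 was at 0.54. LINC00657 (NORAD), known for binding Pumilio proteins in the cytoplasm, had 34.2 and 35.1 against 135 and 149 CPM (2.04), and LINC00094 lay on the cytosolic side (-1.13), while LINC00641 was at 3.31. Among antisense-named RNAs UGDH-AS1 was at 3.28 and C17orf76-AS1 at -1.11, with 832 and 776 against 375 and 367 CPM, and among snoRNA hosts TAF1D was at 2.54 and SNHG11 at -1.16. H19, an imprinted RNA, had 2137.8 and 1742.1 against 4638.9 and 3812.8 CPM (1.12). BCYRN1 (BC200), a short RNA of the cytoplasm, had the lowest ratio at 10 CPM or more (-2.88; 570 and 373 against 83.4 and 46.2 CPM); it resembles Alu repeats, and with MIR4461 (-1.86) and the pseudogene-like LOC645249 (-1.80) it is uncertain because reads of other copies may be counted there. Whether antisense reads were told apart by strand is not given in the sources used here.

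H1299 cells, with 2 cytosol and 2 nuclear libraries (vector and FLII overexpression), gave a similar order of lists. For 10684 genes with enough reads in both lines, ratios correlated at a Pearson's r of 0.87 across genes, with no shared libraries, and the medians were 0.71 in HBE and 0.43 in H1299. ER chaperones had medians of 2.29 in HBE and 1.82 in H1299, lysosomal proteins 2.05 and 1.71, ZNF genes 0.94 and 0.73 and ribosomal proteins -0.02 and 0.19. The ratio itself differed between the lines, by the interaction of line and fraction (edgeR, adjusted p under 0.05, at least 1 in size), for 560 genes higher (5.24%) and 53 lower (0.496%) in HBE. One library bears on this: the cytosol library of FLII overexpression in H1299 holds more reads of HBE-typical genes than the other H1299 fractions, for example 23.2 CPM of KRT5 against 1.08 to 1.27 CPM. With TMM scaling the split was 331 higher and 192 lower. Without the named library, in a fit of line and fraction alone, 1190 genes were higher and 81 lower of 10528, and 495 were called higher both ways; the same fit on all 8 libraries called 624 higher and 60 lower. In that fit the total was 398 without the HBE cytosol knockdown library and 383 without the H1299 nuclear vector library. With the cell group kept as a term, leaving out 1 library also takes its partner from the same cells out of the estimate. The total then moved widely, and such fits do not single out 1 library of a pair. Of 34 tRNA synthetases 7 were higher in HBE and none lower (8 higher without the named library), and of 258 ZNF genes 10 were higher and none lower, a share below that of all genes. For the 12 collagen and laminin chains of both lines the median of the difference was 0.60 (4 higher, none lower), and without the named library it was -0.08 over 11 chains (3 higher).

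**Figure D5:**
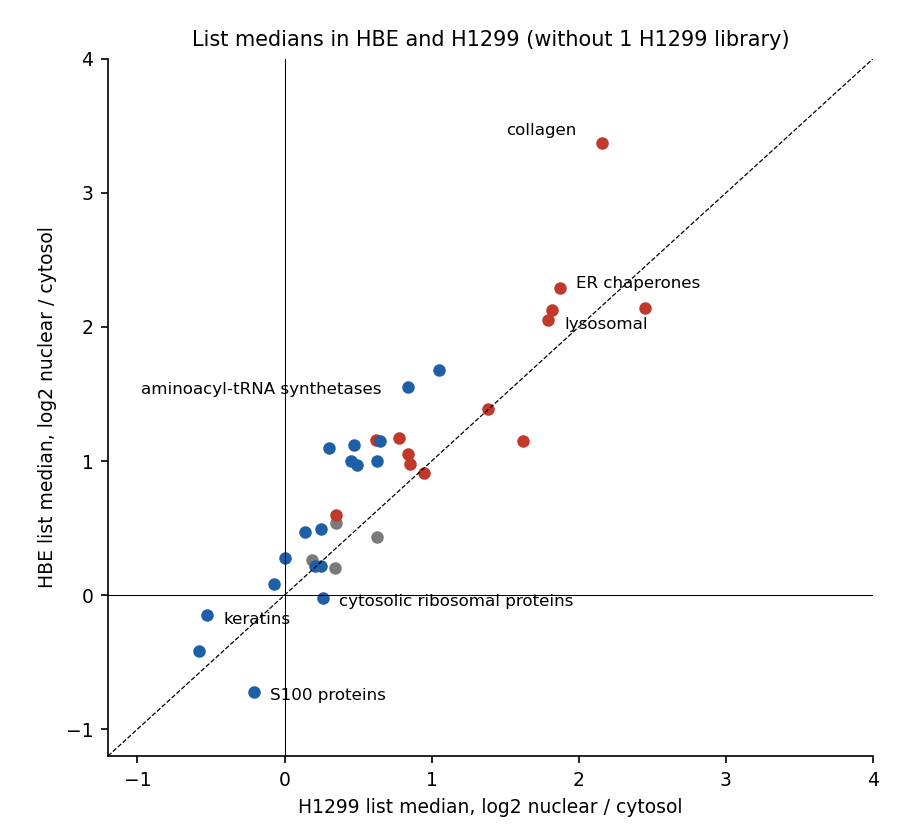
Median log2 nuclear over cytosolic ratio of each gene list in H1299 (x axis) and HBE (y axis), for genes with enough reads in both lines and without the H1299 cytosol library of FLII overexpression; red marks lists of secreted, membrane or ER-routed proteins, grey noncoding RNAs and blue other lists. Most points lie on or above the dashed line of equal values, and the order of lists is alike, with ER chaperones at 2.29 in HBE and 1.87 in H1299.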

How the data were processed

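PolyA RNA of 4 HBE libraries (cytosol and nucleus, NC and FLII knockdown), and of 4 H1299 libraries for the comparison of lines, was analysed; groups come from the sample titles, with 1 library per group. Each table deposited by the authors lists 23709 RefSeq genes with their length, RPKM and number of reads, per the file headers. The authors' read counts are whole numbers per gene, not normalized; the deposited RPKM equals the count divided by length and library total, as checked on the values, and was not tested. Per the submitters' processing notes the builds were GRCh37 and hg19. Which aligner, counter and strand setting were used is not given in the sources used here. No gene is named for 26 symbols written as dates.

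Genes with 50 or more summed reads were fitted with edgeR 4.0.16 (R 4.3.3; quasi-likelihood, library size as total reads, cell group and fraction as terms, Benjamini-Hochberg adjustment over all genes). The fit had 1 residual degree of freedom per gene and a common biological coefficient of variation of 0.026. Its prior degrees of freedom were infinite, so the spread of each gene was set wholly by the pooled one. The p-values are therefore small, and the ratios of the NC and knockdown pairs (0.5 reads added) are the better guide to error. The interaction of line and fraction was fitted on 8 libraries. In simulated data, edgeR calls at an adjusted p under 0.05 recovered 86% of genes changed by a log2 of 1 and 98% of those changed by 2. These were among 11598 genes, and 10 of 11398 unchanged genes were called. For the interaction among 10684 genes these were 69%, 97% and 9 of 10484. The simulation used the fitted spread, 100 genes changed at each size and no difference between cell groups. In the real HBE comparison 83.6% of genes had an adjusted p under 0.05 (edgeR). The simulation therefore does not test the fit under the conditions met here. GC content, coding sequence and exons come from GENCODE 29, matched for 11453 (98.7%) of the genes; as that is another build, no coordinates are given. No protein table was at hand, so proteins were translated from these coding sequences.

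The genes named are MALAT1, NEAT1 and FLII, the 15 largest ratios in each direction at a mean of 10 CPM or more, the 4 most abundant and the most extreme called members of each list, and the 5 largest differences between lines in each direction; exceptions are stated, and some of these genes are not reported here. The members and the gene lists were chosen with earlier results of these data known. The splits by GC content at 50% and by mean CPM, list medians without 1 H1299 library, and the interaction with the cell group dropped or, with a library left out, kept, were added after the values were seen. Alternatives were TMM and median of ratios scaling, totals without ribosomal protein genes, other read minimums, DESeq2 1.42.0, fraction alone, other ratio sizes, each pair alone and each library left out.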

Additional observations from a re-analysis of the deposited data

Results flagged for a closer look

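The nuclear over cytosolic ratio differed between HBE and H1299 for 560 genes higher and 53 lower in HBE, by the test of the difference itself (edgeR interaction of line and fraction). Among the genes with the largest differences at a mean of 10 CPM or more, the tight junction protein CLDN7 had a difference of 4.26, H19 of 4.19, the basal keratin KRT5 of 3.92 and LAMA3 of 3.79. These 4 are HBE genes with few reads in H1299: CLDN7 had 7 and 58 cytosolic and 5 and 3 nuclear reads there (vector, FLII overexpression), KRT5 10 and 145 against 8 and 8, and H19 32 and 313 against 20 and 17. In CLDN7, KRT5 and H19 the cytosol library of FLII overexpression was the high one by far, and for LAMA3 the reads were 5 and 18 against 16 and 26. Without that library H19 alone of these 4 kept the 50 reads needed, with a difference of 1.37 (adjusted p = 1.16e-02, edgeR).

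On the other side were YBX2 (-5.55), MIR4461 (-3.47), the intermediate filament gene VIM (-2.41), the secreted neuropeptide precursor VGF (-2.36) and WNT7B (-2.12). YBX2, VIM and VGF are genes of H1299. YBX2 had 68 and 38 reads in HBE cytosolic and 1 and 0 in HBE nuclear RNA, with 2 and 1 in the HBE mRNA libraries, against 1002 and 698 cytosolic and 308 and 326 nuclear reads in H1299. VIM had 18 and 41 cytosolic and 15 and 12 nuclear reads in HBE, and VGF 33 and 55 against 37 and 37. Their HBE ratios thus rest on a few reads, and whether those came from HBE cells was not tested. WNT7B had 987 and 1216 cytosolic and 534 and 558 nuclear reads in HBE, and 27 and 22 against 34 and 37 in H1299.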

How the results depend on the processing

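Scaling sets the counts: genes higher in nuclear RNA numbered 4730, 2646 with TMM and 2412 with median of ratios, and genes higher in cytosolic RNA 630, 2172 and 2436. They were 3128 (nuclear) with 200 or more summed reads, 1582 and 10 at a log2 ratio of 2, 2610 (cytosolic) with no minimum ratio, and 4107 to 4637 and 543 to 676 with 1 library left out (fits of fraction alone, as 3 libraries leave no spread with the cell group kept). The count of line differences, 613, was 684 with the cell group dropped, and with 1 library left out it ranged from 383 to 1271 without the cell group and from 290 to 1576 with it. Class medians minus the median of all genes do not depend on scaling. For ribosomal proteins (-0.72) they were -0.71 with no filter, -0.56 at 200 or more reads, -0.69 and -0.68 in the NC and knockdown pair alone and -0.76 to -0.61 with 1 library left out. For ZNF genes (0.31) they were 0.48, -0.58, 0.26, 0.22 and 0.06 to 0.27 in the same order, so that their sign turned at 200 or more reads. For genes with a noncoding accession (-0.28) they were -0.01 with no filter, -0.21 at 200 or more reads, -0.29 in the knockdown pair and -0.27 to -0.24 with 1 library left out. For N-terminal stretches (0.38) they were 0.33, 0.46, 0.36 and 0.36 to 0.39, and 0.35 at a hydropathy of 2. For transcripts of 8 kb or more (0.89) they were 0.80, 1.05, 0.86 and 0.87 to 0.94. Against the median of all genes, nuclear long noncoding RNAs (0.31) and snoRNA hosts (0.01) also turned sign at 200 or more reads, and LINC genes (0.06) with no filter. Ratios of single genes that turned sign with TMM and with median of ratios included those of FLII (-0.13, -0.21), GAS5 (-0.06, -0.15), PPIA (-0.04, -0.12), DNAJA3 (-0.45, -0.53), LTBP3 (-0.08, -0.17) and CD151 (-0.12, -0.21). For FLII the fits of fraction alone mix knockdown and NC libraries unevenly and gave 2.57 without the cytosol NC, -0.36 without the cytosol knockdown and -1.64 without the nuclear NC library, against 0.47 and 0.45 in the NC and knockdown pair. The labels carry no replicate numbers; the cell group pairs each nuclear with a cytosol library and is a term in the fit, and without this pairing 4723 and 627 genes were called.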

Other observations

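Several lists of genes for nuclear and cytosolic proteins lay on the nuclear side as well. Of 34 aminoacyl-tRNA synthetases, which charge tRNAs in the cytosol or mitochondria, 23 were higher in nuclear RNA and none lower (median 1.55), with MARS at 2.64 (48.0 and 41.2 against 280 and 272 CPM) and VARS at -0.19. Their 19 members under 50% GC had a median of 2.05 and the 15 at or above it 0.89. Of 92 spliceosome, SR and hnRNP genes 55 were higher and 5 lower (median 1.16): SF3B1, a core splicing factor, had 9.98 and 9.42 against 87.4 and 88.4 CPM (3.18), HNRNPA2B1 182 and 160 against 933 and 894 CPM (2.42), and LSM10 200 and 197 against 67.5 and 79.5 CPM (-1.43). Of 29 genes known for introns that stay in polyadenylated nuclear transcripts, 21 were higher and none lower (median 1.68), led by SON, a speckle protein, with 27.1 and 31.0 against 424 and 433 CPM (3.88). The tables count reads per gene, so spliced and intron-holding transcripts cannot be told apart.

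Translation factors and cell cycle genes lay nearer to all genes, of which 40.8% were higher (22.8% with TMM). Of 70 translation factors 35 were higher (27.1% with TMM; median 1.01) and 1 lower, the cap-binding inhibitor EIF4EBP1 (-1.57). Of 40 cell cycle and replication genes 21 were higher (52.5%; 27.5% with TMM; median 1.09) and 1 lower, the mitotic ubiquitin carrier UBE2C (-1.06; 314 and 344 against 145 and 170 CPM). Of 16 replication-dependent histone genes, whose main transcripts have no polyA tail, 2 were lower and none higher (median -0.42). The 9 clade B serpins, which have no classical signal peptide, had a median of 1.59 (5 higher, none lower), and the 7 secreted serpins one of 1.40 (5 higher, 1 lower).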
